A study of Mus musculus and Homo sapiens with 20 samples.

Results

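The forkhead transcription factor genes were taken as the autosomal protein-coding genes whose GENCODE symbol begins with Fox and then carries a letter and a number, leaving out Foxa1, Foxa2, Foxk1 and Foxk2. The rule found 37 of 20807 genes in mouse (mm10) and 45 of 19111 genes in human (hg38). It uses names only and no measured value. In human it also took FOXL2NB, a neighbour of FOXL2 that is not a forkhead factor, and the near-identical copies FOXD4L1, FOXD4L3, FOXD4L4, FOXD4L5, FOXD4L6 and FOXO3B, over which short reads cannot be placed with certainty. Peaks had been called from CUT&Tag, which cuts out DNA around a chromatin mark with an antibody-bound transposase. The marks were H2AK119ub, the ubiquitin that Polycomb repressive complex 1 puts on histone H2A, and H3K27me3, the methylation that Polycomb repressive complex 2 puts on histone H3. Both were mapped, with and without Tet2, in embryonic stem cells of the mouse (mES cells) and in its hematopoietic stem and progenitor cells (HSPCs), and H2AK119ub was mapped in K562 cells with and without MBD6. The study asked whether loss of Tet2 or of MBD6 altered where these marks lie.

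There were 10 groups of 2 libraries each, and the WT libraries served both the comparison with KO and that between cell types. The mES cells were wild type (WT) or Tet2-/- (knockout, KO) lines received from another laboratory, and nothing in the labels tells how many clones stood behind them. The HSPCs were Lin- c-Kit+ (LK) marrow cells, which hold stem cells and many later progenitors, enriched by magnetic sorting. They came from WT or Tet2-/- mice of 6 to 8 weeks of age, of both sexes and backcrossed to C57BL/6. The labels do not give the sex behind each library. Of the H3K27me3 peaks, 84467 of 85121 and 85015 of 85694 lay on autosomes in WT HSPCs. In KO HSPCs 82918 of 100838 and 80835 of 98313 did. Whether sex differed with genotype was not tested, and if it did, sex and Tet2 cannot be told apart here. K562, a human myeloid leukemia line, was nucleofected with siRNA, either a control (siControl) or one directed at MBD6 (siMBD6). The labels do not say whether these K562 cells were TET2 wild type or knockout, and the study's methods and sample lists include both, so the K562 values hold only for the cells as labelled. The study calls its replicates biological. Whether the 2 libraries of a group came from separate cultures or animals is not in the labels, so the spread between them may still be partly technical.

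Forkhead factors share a winged-helix DNA-binding domain and bind a short AT-rich motif. Many of them are master regulators of embryonic tissues, among them the gut and lung mesenchyme, the kidney stroma, the lens and the thymic epithelium, and in cells that do not use them their CpG-rich promoters are textbook targets of Polycomb repression. Others are used widely, such as the FOXO factors downstream of insulin signaling, which are also known for keeping hematopoietic stem cells quiescent, and FOXM1, which drives genes of mitosis.

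The promoters of 4 genes are shown because they span the patterns described below and have no annotated exon in the window printed. They are the 250 bases before the RefSeq start (build GRCm38.p6), 5′ to 3′ on the strand of the gene, with every CpG in capitals. Foxe3 (chr4:114926068-114926317, minus strand), a regulator of the lens, was covered by both marks in every mouse library. Foxd3 (chr4:99656049-99656298, plus strand), a factor of pluripotent cells and neural crest, was covered in all of them too, but less completely in some. Foxn1 (chr11:78386609-78386858, minus strand), the regulator of thymic epithelium, and Foxi1 (chr11:34208090-34208339, minus strand), a regulator of ionocytes in the inner ear and kidney, were covered in mES cells and much less in HSPCs.
Foxe3: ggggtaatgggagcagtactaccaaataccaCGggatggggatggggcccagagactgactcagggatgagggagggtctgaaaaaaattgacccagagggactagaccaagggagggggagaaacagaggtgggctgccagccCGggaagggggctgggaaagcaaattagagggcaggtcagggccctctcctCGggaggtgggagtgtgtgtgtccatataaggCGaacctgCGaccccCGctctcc
Foxd3: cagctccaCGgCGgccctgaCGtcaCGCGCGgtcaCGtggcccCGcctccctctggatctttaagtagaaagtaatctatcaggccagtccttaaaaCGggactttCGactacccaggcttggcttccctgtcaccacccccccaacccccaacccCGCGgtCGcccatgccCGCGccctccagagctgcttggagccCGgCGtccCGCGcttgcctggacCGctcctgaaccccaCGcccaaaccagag
Foxn1: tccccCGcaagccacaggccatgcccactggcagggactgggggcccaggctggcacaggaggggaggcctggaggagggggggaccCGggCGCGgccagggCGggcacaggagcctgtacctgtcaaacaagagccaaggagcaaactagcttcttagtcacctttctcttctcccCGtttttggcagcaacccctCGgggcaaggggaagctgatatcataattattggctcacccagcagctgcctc
Foxi1: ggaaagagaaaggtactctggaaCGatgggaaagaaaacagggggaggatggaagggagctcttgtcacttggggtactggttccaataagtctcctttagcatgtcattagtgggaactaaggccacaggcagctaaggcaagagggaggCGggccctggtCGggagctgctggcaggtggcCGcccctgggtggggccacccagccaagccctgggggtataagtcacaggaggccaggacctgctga
Foxd3 carried 21 CpG in these 250 bases, whereas Foxn1 carried 7, Foxe3 carried 6 and Foxi1 carried 4. The median over all 32851 RefSeq windows was 6. Foxe3 and Foxi1 thus had similar CpG numbers in this stretch and different coverage in HSPCs. Over the 2001 bp around the start in which coverage was measured, however, Foxe3 held 157 CpG and Foxi1 held 37. RefSeq windows were found for 23 of the 37 mouse genes. Of these, 0 held TGTTTAC, the core forkhead motif, on either strand within 250 bases before and 50 after the start, compared with 3.65% of all windows.

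The lists give positions only, so depth and counting error are unknown, and a promoter without a peak is not shown to lack the mark. Coverage below is the percent of the promoter, taken as 1 kb on each side of the annotated 5′ end of the gene (2001 bp), or of the gene span, that lay in a called peak. The most common peak width was 501 bp in every list (30.4% to 41.4% of the peaks), and a single peak of that width inside a promoter gives a value of 25.0%. Lists held 85121 to 167378 peaks. A gene was called higher or lower when both libraries of one group lay beyond both of the other and the means differed by at least 10 percentage points. In this design of 2 against 2 an exact two-sided permutation test gives no p below 0.333, so these calls are descriptions, and each count is given beside the share of all genes called in the same way. The Tet2 promoter had no peak in any mES library. WT HSPCs had 0% and 32.6% of it under H2AK119ub, KO HSPCs 61.0% and 68.1%. At MBD6 the promoter had no peak in siControl and 25.0% and 40.8% coverage in siMBD6. These values do not check the loss of either gene. Of 5 mES marker genes, Pou5f1, Nanog, Esrrb and Tdgf1 had H3K27me3 over the whole promoter in all HSPC libraries, and only Esrrb had it over most of the promoter in mES cells. Of 5 HSPC marker genes, 4 (Kit, Cd34, Spi1 and Runx1) had H2AK119ub at the promoter in both WT libraries of either cell type, and Ptprc had none. In K562, TAL1 was covered over 64.8% and 62.8% of its promoter in siControl and 83.8% and 88.4% in siMBD6, and GATA1 is not autosomal.

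Forkhead promoters were covered far more than the average promoter in both mouse cell types. Averaged over the 37 genes, 69.7% to 82.9% of the promoter was covered in the 16 mouse libraries, while the average over all genes was 25.3% to 50.4%. The mean over the gene span was 58.1% to 68.9% for forkhead genes and 13.7% to 26.5% for all genes. High coverage was also measured in other developmental families, with 64.4% to 89.4% for 18 Sox genes and 65.3% to 88.9% for 12 T-box genes. Foxe3, Foxf2 and Foxj1, regulators of the lens, of gut and limb mesenchyme and of motile cilia, were covered over their whole promoter by both marks in all 16 libraries. These 3 genes were 8.11% of the family, and 1.62% of all genes met the same condition. In WT mES cells 28 of 37 forkhead promoters (75.7%) were covered over at least 50% by both marks, against 26.7% of all promoters. The same count was 22 (59.5%) in WT HSPCs, against 25.1%. In the plot of coverage by gene and library, the upper rows, which hold the tissue regulators, were nearly uniform in H3K27me3, and the lower rows were mixed.

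**Figure D1:**
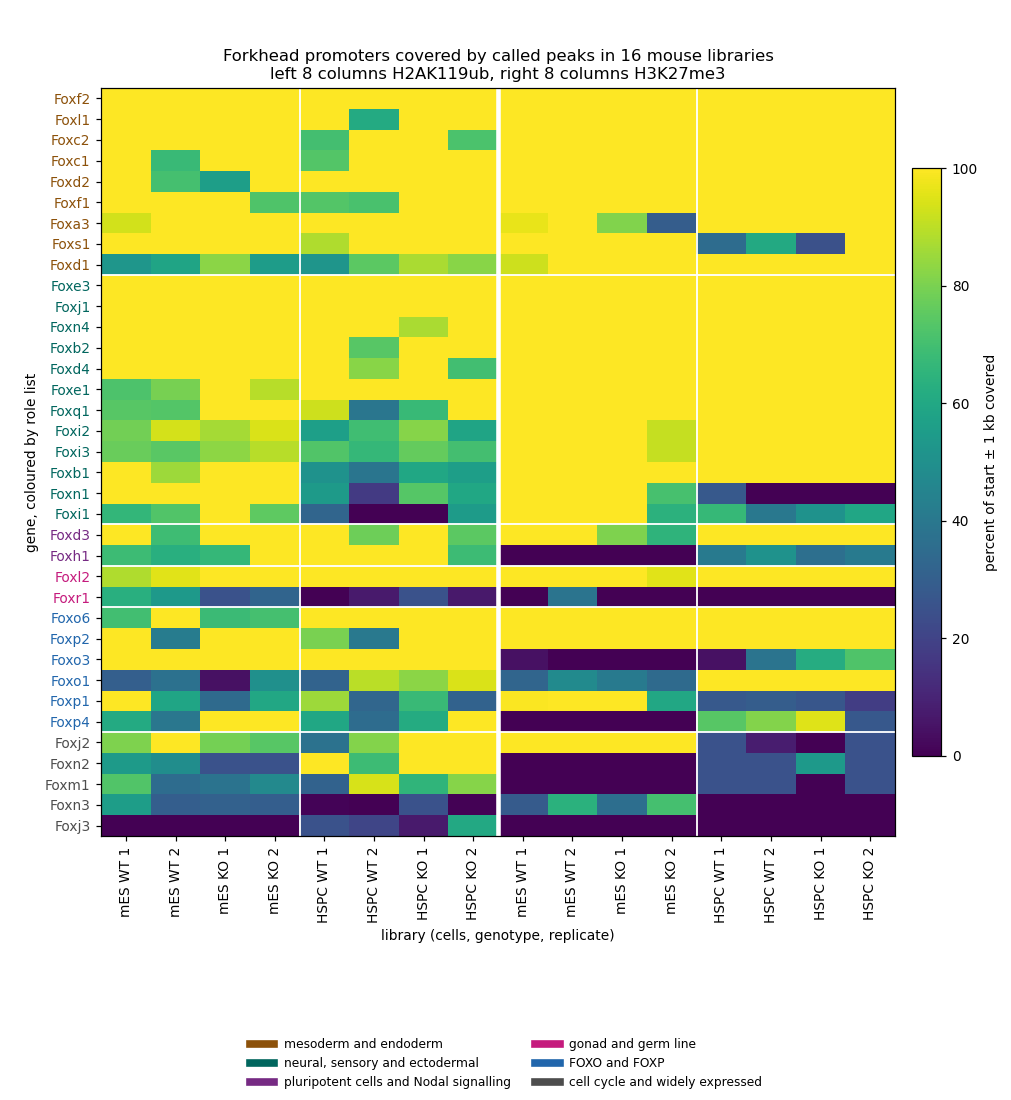
Percent of the promoter (start ± 1 kb) covered by called peaks for 36 forkhead genes (rows, grouped and colored by role) in 16 mouse libraries (columns, 2 per group; color scale 0 to 100%). Foxe3, Foxf2 and Foxj1 are at 100% in all 16 columns, and Foxj3 is at 0 for H3K27me3 in all 8 columns of that mark.

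The mark around the start was also broad. In WT mES cells H3K27me3 lay over the start of 78.4% of forkhead genes and still over 58.1% at 5 kb upstream and 60.8% at 5 kb downstream. For all genes the values were 43.1%, 17.2% and 17.9%. H2AK119ub in WT HSPCs was the narrowest of the WT profiles, with 70.3% at the start, 36.5% at 5 kb upstream and 45.9% at 5 kb downstream. In K562 the forkhead profile was lower at the start than downstream, with 17.8% at the start and 30.0% at 2 kb downstream in siControl, whereas the profile of all genes was 18.0% at the start and 15.3% at 2 kb.

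**Figure D2:**
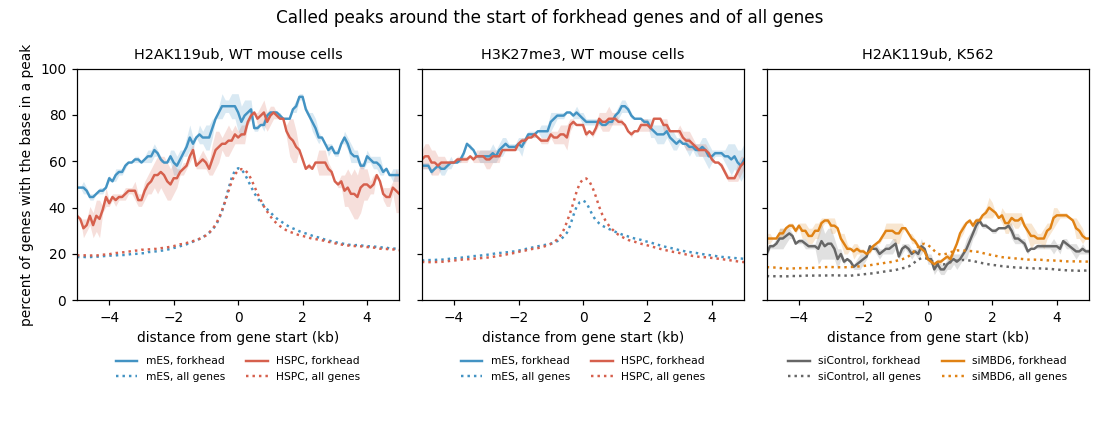
Percent of genes whose base at a given distance from the gene start (x axis, kb) lies in a called peak, for forkhead genes (solid lines, mean of 2 libraries; band, the 2 libraries) and for all autosomal protein-coding genes (dotted lines). In the mouse panels the forkhead lines are at 70.3% or more at the start and at 36.5% or more at 5 kb on either side, and in the K562 panel both forkhead lines are at 17.8% at the start.

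The regulators of mesoderm and endoderm were covered nearly throughout. All 9 had at least 50% of the promoter under H2AK119ub and under H3K27me3 in WT mES cells, and all 9 under H2AK119ub and 8 under H3K27me3 in WT HSPCs. The exception was Foxs1, a gene of vascular smooth muscle and sensory ganglia. Its H3K27me3 promoter coverage was 100% and 100% in WT mES cells, 35.4% and 60.9% in WT HSPCs, and 24.6% and 100% in KO HSPCs. The KO HSPC libraries thus differed from each other by more than the groups did. Foxd1, a regulator of the kidney stroma, had the lowest H2AK119ub coverage of the group in WT mES cells, at 52.7% and 58.3%. Foxa3, a hepatic pioneer factor, was covered over 93.2% to 100% of its promoter by H2AK119ub in all 8 libraries of that mark.

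The neighbors Foxf1, Foxc2 and Foxl1, which regulate gut and lung mesenchyme and lymphatic vessels, lie side by side on mouse chromosome 8. In mES cells H2AK119ub covered these genes almost as 1 unit. Over the 66.3 kb that hold them and 10 kb on either side, H2AK119ub covered 95.6% and 96.0% of this interval in WT mES cells and 73.5% and 74.6% in WT HSPCs. H3K27me3 covered 80.2% and 80.2% in WT mES cells and 94.3% and 94.7% in WT HSPCs. The marks therefore ranked the cell types in opposite order over this cluster, and the WT libraries did not overlap in either mark. Most of the difference in H3K27me3 lay between Foxf1 and Foxc2, where 61.5% and 61.2% was covered in WT mES cells and 92.8% and 96.4% in WT HSPCs. Between Foxc2 and Foxl1 every H3K27me3 library was at 100%. Joining peaks within 1 kb, the H2AK119ub domain over the starts of all 3 genes was 184 kb and 90.9 kb wide in the WT mES libraries, the widest over any forkhead start. The KO libraries of mES cells gave 163 kb and 90.3 kb, so the spread between replicates was larger than the difference between genotypes.

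**Figure D3:**
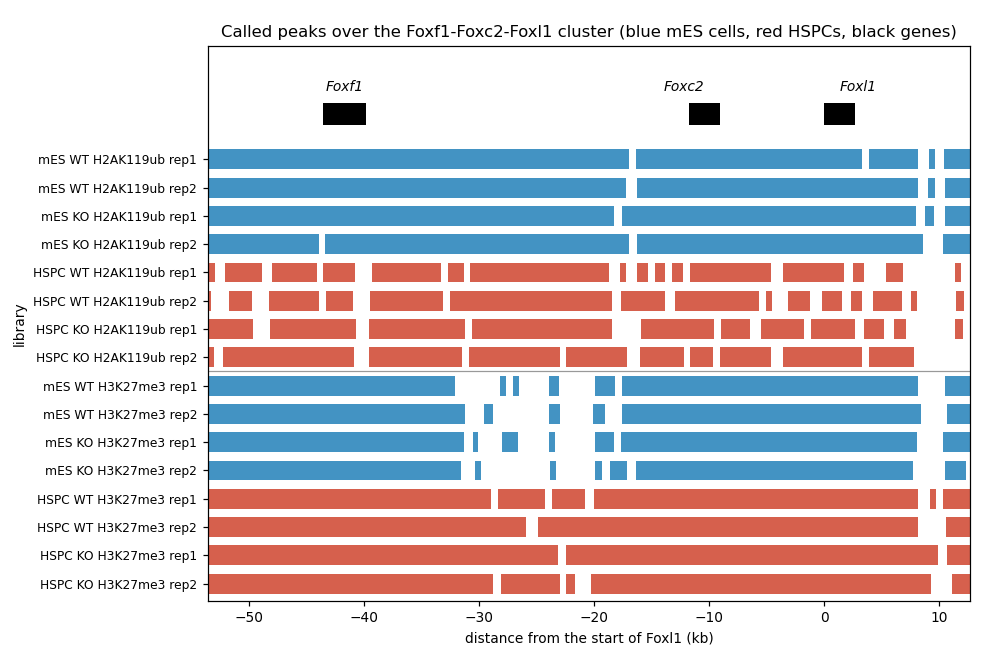
Called peaks (bars) in 16 libraries (rows) over the Foxf1-Foxc2-Foxl1 interval of mouse chromosome 8, by distance from the start of Foxl1 (x axis, kb); black boxes are the genes, blue mES cells and red HSPCs. The H2AK119ub rows of mES cells are nearly unbroken (95.4% to 96.4% covered), and the H3K27me3 rows of mES cells show a gap between Foxf1 and Foxc2 that is mostly filled in HSPCs.

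The second cluster, Foxq1, Foxf2 and Foxc1 on mouse chromosome 13, was much longer and was not covered as a unit. Over 276 kb, H2AK119ub covered 31.8% and 30.2% in WT mES cells and 19.2% and 14.9% in WT HSPCs. H3K27me3 covered 40.1% and 46.5% in WT mES cells and 45.8% and 44.9% in WT HSPCs. The cell types thus separated in H2AK119ub and overlapped in H3K27me3. Over all autosomes H2AK119ub peaks covered 258.8 and 247.4 Mb in WT mES cells and 170.7 and 138.4 Mb in WT HSPCs. H3K27me3 peaks covered 186.6 and 229.6 Mb in WT mES cells and 163.5 and 166.3 Mb in WT HSPCs. The part of these totals in the values of either mouse cluster was not tested. In K562 H2AK119ub lay over 14.1% and 13.1% of the human counterpart on chromosome 6 in siControl and, with siMBD6, over 19.1% and 21.3%. For the counterpart of the Foxf1 cluster on human chromosome 16 the siControl values were 26.1% and 27.7%, and the siMBD6 values 36.8% and 36.03%. Both human clusters lay higher in both siMBD6 libraries. Peaks over all autosomes also covered more in these lists, 175.6 and 188.0 Mb with siMBD6 against 130.9 and 130.8 Mb with siControl, and the part of this in the cluster values was not tested.

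Regulators of neural, sensory and ectodermal tissues were also covered throughout in mES cells and less evenly in HSPCs. All 13 had at least 50% of the promoter under both marks in WT mES cells, with H3K27me3 at 100% for all 13 in both libraries. In WT HSPCs 9 of 13 reached 50% for H2AK119ub and 12 of 13 for H3K27me3. Foxn1 was covered by H3K27me3 over 100% and 100% in WT mES cells and over 28.1% and 0% in WT HSPCs, and KO HSPCs were both at 0. Foxi1 was at 100% and 100% in WT mES cells and at 67.0% and 40.1% in WT HSPCs for H3K27me3. Both genes were thus below every mES library of that mark in their HSPC libraries of the same genotype. Foxb1, a hypothalamic regulator, had H3K27me3 at 100% in all 8 libraries. Its H2AK119ub coverage was lower in WT HSPCs, with 100% and 85.5% in WT mES cells against 50.8% and 38.8%. At this gene in WT HSPCs H3K27me3 was complete and H2AK119ub partial.

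The genes of pluripotent cells and Nodal signaling differed from each other. Foxd3 was covered by H3K27me3 over 100% and 100% in WT mES cells and 100% in all HSPC libraries. Foxh1, the Smad partner that reads Nodal signals, had no H3K27me3 peak in any of the 4 mES libraries. In HSPCs the H3K27me3 values of its promoter were 40.7% and 51.02% for WT, and 36.4% and 40.6% for KO. H2AK119ub was present at Foxh1 in both cell types, at 68.5% and 63.0% in WT mES cells and 100% and 100% in WT HSPCs. Of the gonad and germ line genes, Foxl2, the ovarian regulator, had at least 88.1% of its promoter covered by either mark in all 16 libraries. Foxr1 had no H3K27me3 in any HSPC library, and H2AK119ub covered 63.2% and 53.8% in WT mES cells and 0% and 7.1% in WT HSPCs.

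The FOXO and FOXP genes were split. Foxo6 was covered by H3K27me3 over its whole promoter in all 8 libraries, as was Foxp2, a regulator of neural development. Foxo3, known for its role in stem cell quiescence, was covered by H2AK119ub over 100% in all 8 libraries and carried little H3K27me3, at 4.5% and 0% in WT mES cells and 4.3% and 38.6% in WT HSPCs. Foxo1, which links insulin signaling to transcription, had H3K27me3 over 32.5% and 48.0% in WT mES cells and 100% and 100% in WT HSPCs. Foxp4 had none in any mES library and 74.2% and 81.6% in WT HSPCs. Foxp1, a regulator of B-cell development, went the other way, with 99.6% and 100% in WT mES cells and 27.9% and 29.5% in WT HSPCs. In this group 3 genes thus separated the WT cell types in H3K27me3, of which 2 were higher in HSPCs and 1 was lower. Over the whole gene span Foxo1 reached only 24.9% and 22.9% in WT HSPCs.

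In WT cells the cell cycle and widely expressed genes had the lowest mean promoter coverage of the role groups in each cell type and mark, from 13.3% to 47.8%. In KO HSPCs their H2AK119ub mean was 64.1%, above the 58.0% of the gonad and germ line genes. Foxj3 had no H3K27me3 peak at its promoter in any of the 8 mouse libraries of that mark, and no H2AK119ub in mES cells. The window at its annotated mouse start also held the fewest CpG of the family, 16 against a median of 133. The RefSeq start of Foxj3 lies outside this window, and the 250 bases before that start held 34 CpG. The promoter values of Foxj3 thus hold for the annotated start only. Foxm1 and Foxn2 had no H3K27me3 in mES cells, and in WT HSPCs each had 25.0% in both libraries, the value of a single peak of the most common width. Foxm1 carried H2AK119ub over 72.8% and 35.3% in WT mES cells and 31.5% and 94.0% in WT HSPCs, and its groups overlapped. Foxj2 was covered by H3K27me3 over 100% in all 4 mES libraries and over 25.0% and 8.0% in WT HSPCs. Foxn3, a checkpoint factor, had 28.6% and 63.7% in WT mES cells and none in any HSPC library. Foxj3, Foxm1, Foxh1, Foxp4 and Foxn2 were the 5 genes at 0 for H3K27me3 in all mES libraries (13.5% of the family, against 44.5% of all genes), and Foxj3, Foxr1 and Foxn3 were the 3 at 0 in all HSPC libraries (8.11%, against 28.5%). No forkhead promoter was at 0 for H2AK119ub in all HSPC libraries, where the lowest were Foxn3 and Foxr1 with 0% to 25.0%.

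Comparing WT HSPCs with WT mES cells, forkhead promoters were called in both directions in H2AK119ub. Of the 37 members 4 were higher (10.8%, background 22.8% of all genes) and 8 were lower (21.6%, background 17.7%), so the share of lower genes was near the background. In both WT mES libraries 12 members were already at 100%, against 13.1% of all genes, and could not be higher. The family mean was 79.0% ± 3.97 (SD, n = 2) in mES cells and 71.5% ± 2.60 in HSPCs, and the libraries did not overlap. The mean over all genes differed by 0.41 points. The genes higher in HSPCs were Foxh1 (34.3 points), Foxn2 (32.5), Foxe1 (24.1), a thyroid regulator, and Foxj3 (23.01). The 5 largest differences in the other direction were those of Foxn1 (-64.4 points), Foxr1 (-54.9), Foxi1 (-53.3), Foxb1 (-47.9) and Foxn3 (-42.4). Of the 8 lower genes 5 belonged to the neural, sensory and ectodermal list.

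For H3K27me3 5 members were higher in WT HSPCs (background 27.7%) and 6 were lower (background 14.5%). The genes higher in HSPCs were Foxp4 (77.9 points), Foxo1 (59.7), Foxh1 (45.9), Foxm1 (25.0) and Foxn2 (25.0). The largest differences in the other direction were those of Foxn1 (-86.0 points), Foxj2 (-83.5), Foxp1 (-71.1), Foxs1 (-51.8) and Foxi1 (-46.5), followed by Foxn3. The family mean was 78.4% ± 1.84 in mES cells and 74.5% ± 0.14 in HSPCs, while the mean over all genes was 5.30 points higher in HSPCs. With 25 of 37 members already at 100% in both mES libraries, against 17.3% of all genes, most of the family had no room to be higher. Whether this limit accounts for the difference from the background was not tested.

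**Figure D4:**
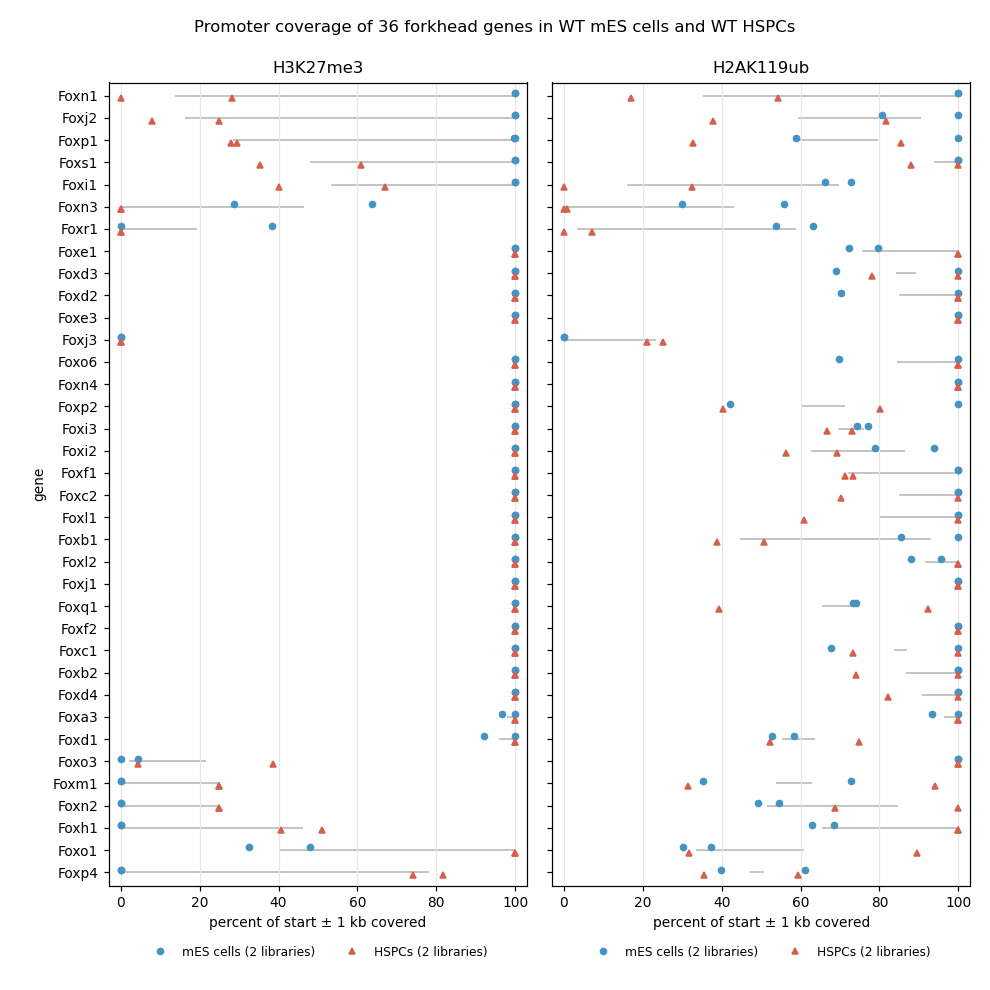
Percent of the promoter covered in WT mES cells (circles) and WT HSPCs (triangles) for 36 forkhead genes, ordered by the H3K27me3 difference; each symbol is a library and the gray line joins the group means. In H3K27me3 most genes sit at 100% in both cell types, with Foxn1, Foxj2 and Foxp1 at the top and Foxp4 and Foxo1 at the bottom showing the largest separation.

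The KO libraries allow the same contrast in other samples. There the family means of the cell types overlapped in both marks. For H2AK119ub they were 80.1% and 82.2% in KO mES cells and 82.9% and 81.5% in KO HSPCs. For H3K27me3 they were 76.7% and 72.2% in KO mES cells and 74.3% and 75.5% in KO HSPCs. The lower family mean of WT HSPCs was thus not seen in KO. In H2AK119ub 6 members were higher in KO HSPCs than in KO mES cells (background 29.1%) and 6 lower (background 12.9%), and in H3K27me3 7 were higher (background 33.8%) and 5 lower (background 11.6%). The H3K27me3 calls shared by both genotypes were Foxo1, Foxh1, Foxp4 and Foxn2, which were higher in HSPCs and made up 80% of the WT and 57.1% of the KO calls, and Foxp1, Foxj2, Foxi1, Foxn1 and Foxn3, which were lower and made up 83.3% and 100% of them. The H2AK119ub calls shared by both genotypes were Foxj3 and Foxn2, higher in HSPCs (50.0% and 33.3% of the calls), and Foxi2, Foxb1, Foxi1, Foxn1 and Foxn3, lower (62.5% and 83.3%). In a two-sided exact permutation test within genotype over the libraries, 8 members for H2AK119ub and 9 for H3K27me3 reached the smallest p that the test allows, 0.0556, as did 29.0% and 34.9% of all genes. Their adjusted p-values in this exact test were 0.192 and 0.159 (Benjamini-Hochberg over all genes).

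Loss of Tet2 in HSPCs went with higher H2AK119ub coverage of forkhead promoters. The family mean was 73.4% and 69.7% in the WT libraries and 82.9% and 81.5% in the KO libraries, a difference of 10.6 points, and the groups did not overlap. Over all genes the mean difference was 5.85 points and the median 0, while the median of the 37 members was 10.9 points. There 8 members were called higher (background 16.1%) and 0 lower (background 4.04%). These 8 were 21.6% of the family, close to the background share, so the count itself is not particular to forkhead genes. Foxj2 was at 37.8% and 81.6% in WT and 100% in both KO libraries, and Foxp2 at 80.1% and 40.4% in WT and 100% in both KO libraries. Both had a wide spread between the WT libraries and none between the KO libraries.

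Foxp4 had WT values of 59.4% and 35.5% and KO values of 61.7% and 100%, and there the nearest libraries of the 2 groups lay close together. Foxn1 stood at 54.3% and 16.9% in the WT libraries and at 73.8% and 59.7% in the KO libraries. For Foxf1 the WT values were 73.3% and 71.3%, and both KO values were 100%. Foxf1 was the call with the tightest replicates, and its difference was 27.7 points. Foxd1 (21.4 points) and Foxb1 (12.97 points) were further calls. All 8 calls were spread over 4 role groups, with 3 of 13 neural, sensory and ectodermal genes, 2 of 9 mesoderm and endoderm genes, 2 of 6 FOXO and FOXP genes and 1 of 5 widely expressed genes. Already in WT 11 members were at 100% in both libraries, where no higher value is possible. Over the gene span 6 members were higher (background 5.28%) and 1 lower (background 3.21%). The largest was Foxd1, at 42.1% and 63.4% in WT and 79.8% and 100% in KO, and the lower gene was Foxc2, at 96.3% and 100% in WT and 79.3% and 73.5% in KO.

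**Figure D5:**
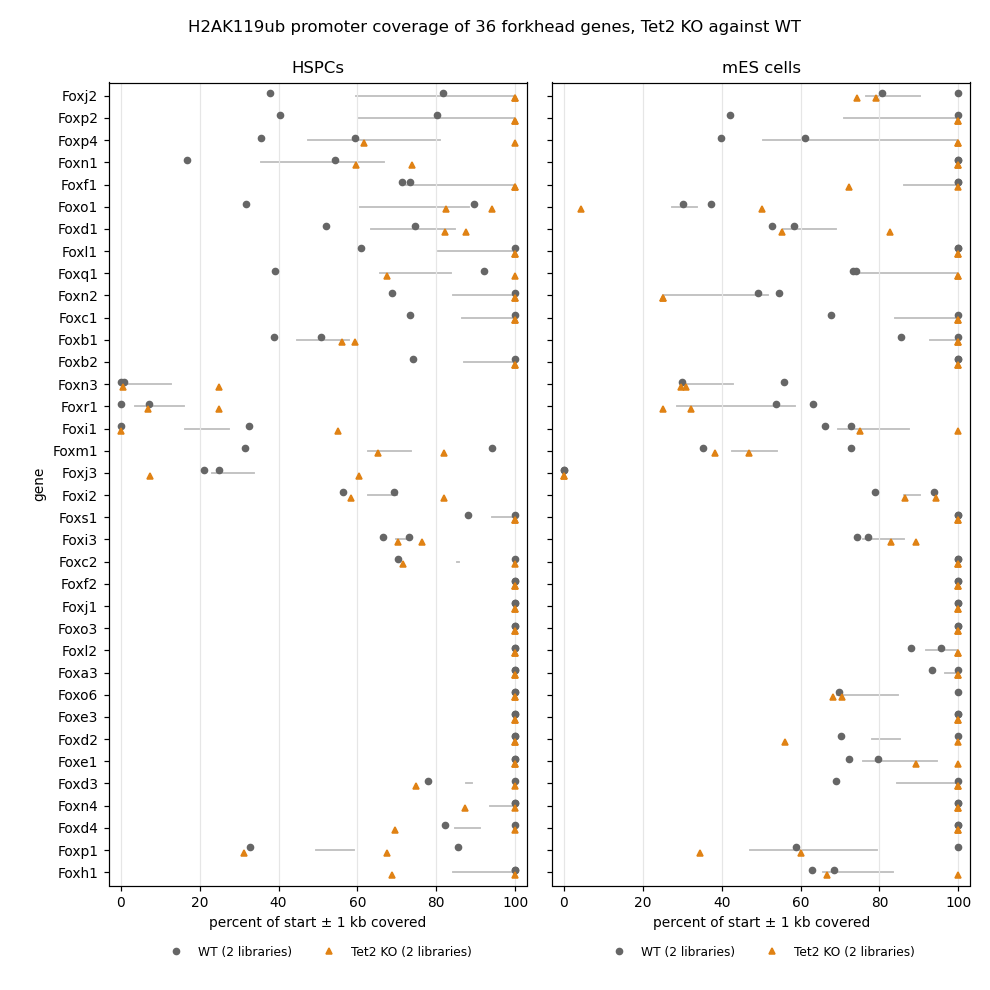
H2AK119ub coverage of 36 forkhead promoters in WT (circles) and Tet2 KO (triangles) libraries of HSPCs (left) and mES cells (right), ordered by the difference in HSPCs; each symbol is a library and the gray line joins the group means. In HSPCs Foxj2 and Foxp2, at the top, have both KO libraries to the right of both WT libraries, and in mES cells Foxj2 lies on the other side.

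For H3K27me3 in HSPCs the forkhead averages of KO and WT libraries overlapped. Averages were 74.4% and 74.6% (WT) and 74.3% and 75.5% (KO), and 27 of 37 members had the same mean in both groups. Here 1 member was called higher (background 5.68%) and 0 lower (background 7.3%). It was Foxo3, whose WT values were 4.3% and 38.6% and whose KO values were 61.8% and 72.6%. The Foxo3 promoter was fully covered by H2AK119ub in all of these cells, and in mES cells of either genotype its H3K27me3 coverage was at most 4.5%. On the gene span the same gene was at 1.1% and 1.1% in WT and 1.1% and 2.3% in KO.

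In mES cells loss of Tet2 went with H2AK119ub calls in both directions. Averages over the family were 81.8% and 76.2% (WT) and 80.1% and 82.2% (KO), and the groups overlapped. There were 5 members called higher (background 7.43%) and 3 lower (background 6.65%). Foxp4 had the largest difference, with 61.1% and 39.8% in WT and 100% in both KO libraries. Foxq1, a gene of the hair shaft, was at 74.2% and 73.3% in WT and 100% in both KO libraries. Foxe1 (18.7 points), Foxi1 (18.0) and Foxi3 (10.3), which patterns the jaw and ear, were the others, and all but Foxp4 belonged to the neural, sensory and ectodermal list. The 3 lower genes were Foxr1, with 63.2% and 53.8% in WT and 25.0% and 32.2% in KO, Foxn2, with 54.6% and 49.1% in WT and 25.0% in both KO libraries, and Foxj2, with 80.7% and 100% in WT and 79.2% and 74.2% in KO. In both KO libraries Foxn2 thus had the value of a single peak of the most common width.

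Over the gene span 6 members were higher in KO mES cells (background 3.34%) and 3 lower (background 3.66%) for H2AK119ub. The 3 lower genes, Foxm1, Foxp1 and Foxj2, all lay on the distal part of chromosome 6. Foxm1 was at 42.0% and 41.5% in WT and 19.7% and 29.6% in KO, Foxp1 at 34.4% and 31.6% in WT and 17.2% and 15.7% in KO, and Foxj2 at 82.0% and 84.2% in WT and 73.9% and 62.8% in KO. No other forkhead gene was called lower over its span. The chromosome 6 profile of KO over WT coverage in 1-Mb windows had a step at 81 Mb in both marks, from a mean log2 ratio of 0.09 to -0.56 for H2AK119ub and from 0.17 to -0.63 for H3K27me3. Of the 630 genes beyond the step, 68.6% had a lower H2AK119ub span coverage in KO, against 39.2% of all autosomal genes. A best step was fitted to every autosome in these same lists, so an excess beyond it was built in. The steps of chromosomes 6 and 13 ranked 1 or 2 in each mark. Foxp2 and Foxi3, on the near side of the step, were not among the lower genes. A second step lay at 96 Mb (H2AK119ub) or 89 Mb (H3K27me3) on chromosome 13. Foxd1 lies beyond it and was higher in its H2AK119ub span, with WT values of 57.0% and 45.5% and KO values of 80.4% and 60.7%. The part of these steps in the single-gene values was not tested.

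H3K27me3 lay lower in KO mES cells on average over all genes and over forkhead genes. For the family the libraries averaged 77.1% and 79.7% (WT) and 76.7% and 72.2% (KO), a difference of -3.96 points, against -5.95 points over all genes. Over the gene span the order was the other way, with -4.27 points for the family and -2.07 points over all genes, and there the family means of WT and KO libraries overlapped. There were 0 members called higher (background 1.5%) and 2 lower (background 14.8%), and 24 of 37 had the same mean in both groups. These were the 19 at 100% and the 5 at 0 in all 4 libraries, the limits of this measure. Of all genes 12.1% and 44.5% were at these limits. Foxa3 was at 96.6% and 100% in WT and 80.9% and 29.4% in KO. Foxd3 was at 100% in both WT libraries and 80.7% and 65.2% in KO. In both genes the second KO library was the lowest, as it was for the family mean. Its list also covered the least of the autosomes, at 147.8 Mb. The first KO list covered 212.2 Mb and the WT lists 186.6 and 229.6 Mb. The part of these totals in the differences was not tested. Over the gene span 0 members were higher (background 1.59%) and 4 lower (background 7.67%). Among them were Foxr1 (-25.4 points), Foxn1 (-23.7) and Foxa3 (-21.6). Foxp1, on distal chromosome 6, was at 10.8% and 15.7% in WT and 4.0% and 2.9% in KO, under the size needed for a call.

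Over all 16 mouse libraries no forkhead gene passed a test of KO against WT. In a two-sided exact permutation test within cell type and mark (smallest possible p 0.00154), 0 of 37 members had a p under 0.05, against 3.33% of all genes. The smallest p of the members in this exact test was 0.0556, reached among others by Foxd1 with a mean difference of 9.70 points, and the adjusted p was 1.

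In K562 each siControl library had 26 of the 45 promoters without an H2AK119ub peak. In both siControl libraries 24 of the 45 had none, as did 57.5% of all genes. The siMBD6 libraries had 24 and 23 promoters without a peak. These counts include the 6 near-identical copies, at 0 in all 4 libraries, where read placement is uncertain. FOXD4, after which the FOXD4L copies are named, was also at 0 in all 4 libraries, and read placement there was not checked. The copies raise the share without a peak and lower the family mean. The family mean was 18.2% and 19.1% in siControl and 21.9% and 23.2% in siMBD6, near the mean over all genes of 15.7% to 21.1% over the 4 libraries. Without a peak in all 4 libraries were 19 of 45 promoters (42.2%, against 48.1% of all genes). They included FOXO1, FOXO3, FOXM1, FOXP1, FOXP2, FOXC2, FOXQ1 and, of the near-identical copies, all 6. Only FOXN1 was at 100% in all 4 libraries. FOXJ1 was at 41.9% and 100% in siControl and 100% in both siMBD6 libraries, and FOXS1 at 35.1% and 100% in siControl and 100% in both siMBD6 libraries. FOXH1 ranged from 56.3% to 73.2%, and FOXO6 from 45.4% to 52.6%. By the mean of the siControl libraries the widest domain lay over FOXO6, at 19.5 kb and 26.1 kb, closely followed by FOXN1, whose libraries differed more, at 8.9 kb and 36.4 kb.

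After MBD6 knockdown 3 promoters were called higher (background 11.8%) and 1 lower (background 1.53%). FOXF2 was at 0.45% and 0.60% in siControl and 30.0% and 41.6% in siMBD6. FOXL1 was at 39.2% and 85.1% in siControl and 92.5% and 100% in siMBD6, and FOXL3, a germ cell gene, at 0% and 16.6% in siControl and 23.3% and 20.6% in siMBD6. FOXE3 was lower, at 43.1% and 45.7% in siControl and 22.1% and 39.3% in siMBD6. The difference of the family mean was 3.92 points at the promoter, against 4.76 points over all genes. Over the gene span it was larger, with 19.5% and 20.4% in siControl and 26.3% and 27.1% in siMBD6, a difference of 6.74 points against 3.93 over all genes. Over their span 9 members were higher (background 14.3%) and 0 lower (background 0.225%), which is 20% of the family. FOXE3, lower at its promoter, was among the 9, with span values of 22.3% and 0% with siControl and 39.6% and 41.3% with siMBD6. FOXN4, a regulator of retinal and spinal interneurons, was at 50.8% and 45.0% in siControl and 69.9% and 69.5% in siMBD6, and FOXF2 at 55.2% and 40.6% in siControl and 68.5% and 69.5% in siMBD6. FOXL2NB and FOXL2, which share a start region, were both among the 9 and are not separate observations. FOXE1, FOXL1, FOXI3 and FOXP4 were the others.

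The forkhead promoters held a median of 133 CpG in 2001 bp in mouse, against 64 over all genes. Across the 37 genes, which share their libraries and are not independent, Spearman's rho between CpG number and mean coverage was 0.42 for H2AK119ub and 0.37 for H3K27me3 in WT HSPCs, and 0.04 and -0.04 in WT mES cells. Over all 20807 genes it was 0.65, 0.57, 0.47 and 0.29 in the same order. The difference between the cell types was not tested, and in both WT mES libraries 12 members (H2AK119ub) and 25 members (H3K27me3) were tied at 100%. Foxq1 (26 CpG), Foxn1 (32) and Foxi1 (37) were all at 100% for H3K27me3 in WT mES cells, and of these only Foxq1 was at 100% in HSPCs. These counts hold for the window at the annotated mouse start. The human windows held 191 CpG for FOXQ1, 49 for FOXN1 and 77 for FOXI1. The widest H3K27me3 domain over a forkhead start in WT mES cells lay over Foxs1 in both libraries, at 49.5 kb and 56.2 kb, and by the mean of the libraries Foxf1, Foxo6, Foxl2 and Foxf2 came next. In WT HSPCs the order differed between the libraries. In the first a domain of 90.1 kb held the starts of Foxf1, Foxc2 and Foxl1 together. In the second the domain over Foxf1 was 52.9 kb, and those over Foxe1 (73.7 kb), Foxd1 (69.1 kb) and Foxl2 (56.1 kb) were wider. For H2AK119ub in WT HSPCs the widest by the mean lay over Foxj1, at 36.1 kb and 25.6 kb, although Foxc2 was wider in the second library, at 34.9 kb.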

How the data were processed

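CUT&Tag peak lists of 20 libraries were used as the authors deposited them, 1 list per library. Each held a chromosome, start and end, and no count, score or p-value. Per the labels, the submitters' processing notes name Trimmomatic 0.39, Bowtie2 2.4.1 and HOMER 4.9 with mm10 and hg38, whereas the study's methods name MACS2 in broad mode as the peak caller. Which of them made the deposited lists is not given in the sources used here. Lists are not scaled by spike-in, so their length can move with depth.

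Covered percentages of every autosomal protein-coding gene (GENCODE vM21 and v44, whose builds match) were computed in Python 3.11.15 with numpy 2.4.6, pandas 2.3.3 and scipy, after tests on simulated data. Groups and replicate numbers came from the labels. All comparisons ran over all genes, with exact permutation tests where named. Named were genes separated by at least 10 points (up to 6 per comparison and direction), the 5 largest cell type differences per direction and mark, genes at 0 throughout or the 5 lowest, the 5 widest domains, both gene clusters, Foxo1, Foxo3, Foxp1, Foxm1, Foxd3, Foxh1, Tet2 and MBD6. Other genes named were chosen after their values were seen. The members and lists were chosen with earlier results of these data known. Alternatives were a 2-kb window, wider peaks, equal lists, another start, other sizes of difference, leaving out each library, a replicate block and leaving out chromosomes 6 and 13. Values of 1 forkhead gene and 1 marker gene are not reported here, although counts and means over the family include the former.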

Additional observations from a re-analysis of the deposited data

Results flagged for a closer look

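Foxj2 was the only forkhead gene whose H2AK119ub promoter coverage moved in opposite directions with loss of Tet2 in the 2 mouse cell types without overlap between WT and KO in either. The KO minus WT difference was -13.6 points in mES cells and 40.3 points in HSPCs. In mES cells the nearest WT and KO libraries, at 80.7% and 79.2%, lay close together. In HSPCs the WT libraries were far apart, at 37.8% and 81.6%. The difference between the cell types was not tested. Foxj2 lies on the distal part of chromosome 6, beyond the step in the mES profile.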

How the results depend on the processing

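Leaving settings as described, 127 of 149 other settings gave a value close to the one reported and 22 moved it. None was scored as reversed, but counts could not be, and means only where the groups had not overlapped. With the replicate block the mean difference equals the reported one by construction, so those settings say nothing about it. Counting window: with 2 kb on each side of the start, genes called lower were 5 for H3K27me3 in KO mES cells, 1 for H3K27me3 in KO HSPCs, 0 in K562 and 13 for H2AK119ub in WT HSPCs against WT mES cells, where 7 were higher. Peak width: with peaks of at least 1 kb, the mean difference was 13.1 points at the promoter and 6.84 over the span for H2AK119ub in KO HSPCs, 2.12 over the span for H2AK119ub in KO mES cells, 1.75 at the promoter for H3K27me3 in KO HSPCs, 5.04 at the promoter in K562 and -6.38 for H3K27me3 between the WT cell types, where 3 genes were higher. With the start of highest coverage, H3K27me3 in KO HSPCs gave 2.35 points and 3 higher genes, and H3K27me3 between the WT cell types gave -0.768 points. Without a minimum size 2 genes were lower for H3K27me3 in KO HSPCs and 2 in K562. With 20 points 0 were lower in K562 and 2 were higher for H2AK119ub in KO mES cells, where 3 were higher without chromosomes 6 and 13. Lists of equal length gave 6.12 points over the span in K562. The cause of these moves was not tested.

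Leaving out 1 library at a time left 1 library in a group, which makes non-overlap easier, and counts mostly rose. For H2AK119ub in KO mES cells 6 to 10 genes were higher and 4 to 7 lower, and the mean promoter difference ran from -0.731 to 4.88 points. For H3K27me3 there 0 to 1 were higher and 2 to 5 lower, at -6.20 to -1.71 points. For H2AK119ub in KO HSPCs 11 to 14 were higher and 1 to 4 lower, at 8.80 to 12.5 points. For H3K27me3 there 1 to 3 were higher and 1 to 3 lower, at -0.185 to 1.00 points. In K562 5 to 6 were higher and 1 to 3 lower, at 3.25 to 4.58 points. Between the WT cell types 5 to 7 were higher and 9 to 15 lower for H2AK119ub, at -10.3 to -4.69 points, and 5 to 6 higher and 6 to 7 lower for H3K27me3, at -5.24 to -2.64 points.

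The replicate numbers of the labels only name the libraries. Deviations of same-numbered libraries correlated at -0.134 to 0.031 across genes in 5 comparisons. With the replicate number as a block, 5 genes instead of 3 were lower for H2AK119ub in KO mES cells, and 10 instead of 8 were higher in KO HSPCs. Crossing the numbers for H3K27me3 in mES cells, an alternative chosen after seeing the data, gave 0 higher and 2 lower genes. The lists hold no depth, so lower depth and a lower level of the mark cannot be told apart.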
